A study of Homo sapiens with 20 samples.

Results

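The mRNAs of 3 groups of splicing regulators, the SR proteins, the hnRNPs and the CLK kinases with their partner genes, were compared in AC16 cells exposed to e-cigarette aerosol or to filtered air. Members were picked out by gene symbol. They were the numbered SRSF genes, the genes whose symbol begins with HNRNP and a letter, CLK1 to CLK4, TRA2A, TRA2B, CCNL1 and CCNL2. This gave 45 genes among the 58735 identifiers of the count tables. There were 12 SR proteins, 2 TRA2 proteins, 25 hnRNPs, 4 CLK kinases and 2 L-type cyclins. Pseudogenes and hyphenated names of the same families, 131 in all, were left out. Of the 45 members, 41 had enough counts to be tested. The other 4 were HNRNPCL1, HNRNPCL2, HNRNPCL3 and HNRNPCL4, which had 0 counts in each of the 10 libraries, a value that allows up to 3 counts per library.

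AC16 is an established human line made by fusing cells of adult ventricular muscle with a transformed fibroblast line, so that it divides in culture. Exposure took place at an air–liquid interface, that is, with medium beneath the cells and gas above them. The treated group met e-cigarette aerosol and the control group met filtered air, with 5 biological replicates in each per the labels, so p-values measure the spread between these cultures of 1 cell line. What the aerosol contained, how much was given and for how long is not stated in the labels. The tissue label was checked against markers: 15 of 18 cardiomyocyte genes averaged below 1 CPM (the count scaled to a common library size), and 8 of them had 0 counts in every library. Those below 1 CPM included the sarcomere genes TNNT2, MYH6, MYH7 and ACTN2 and the natriuretic peptide genes NPPA and NPPB. The others were present. TTN, also a sarcomere gene, averaged 26.8 CPM in air and 40.9 CPM in aerosol. GATA4 averaged 12.7 CPM in air and 10.8 CPM in aerosol, and MEF2C 3.09 and 3.56 CPM.

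Pre-mRNA splicing removes introns, and which exons are kept depends on proteins that bind the transcript beside the spliceosome. SR proteins carry a domain rich in arginine and serine, mostly bind exonic enhancers and favour inclusion of the exon. Many hnRNPs bind silencers and favour skipping, although the outcome depends on where each binds. SRPK and CLK kinases phosphorylate the SR proteins and so control their import and their release from nuclear speckles. Many of these genes also limit their own mRNA by splicing in exons with premature stop codons. Such transcripts are counted together with the productive ones in a table of 1 count per gene.

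Of the 41 members tested, 2 changed between aerosol and air, and both rose: SRSF6, an SR protein, and CCNL1, which encodes cyclin L1, a partner of the CDK11 kinases in nuclear speckles. SRSF6 rose 1.46-fold and CCNL1 rose 2.19-fold. These 2 genes were 4.88% of the members tested, beside 3.01% of all 20166 genes tested (edgeR, quasi-likelihood F test, adjusted p under 0.05 by Benjamini-Hochberg). In the upward direction the 2 members stand beside 1.62% of all genes. In the downward direction 0 members stand beside 1.39% of all genes. An unadjusted p under 0.05 was found for 23 of the 41 members, beside 18.3% of all genes, and 7 of the 23 were lower in aerosol, beside 9.48% of all genes. All 41 are protein-coding, and 2899 of the 13507 protein-coding genes tested had an unadjusted p under 0.05. Neither base, here or below, was matched to the members for expression level, so these shares do not test for enrichment. The count of members called depended on the tool. DESeq2 called 8 members higher and 1 lower, beside 3.37% and 2.38% of the 34024 genes with any count. That base takes in any genes that DESeq2 left without an adjusted p. By limma-voom, 2 members were higher and 1 lower, beside 1.64% and 1.69% of all genes. The member lower with both tools was HNRNPL. Median log2 fold change was 0.25 over the 41 members, with 26 above 0 and 15 below, and -0.00 over all genes tested. Over the protein-coding genes tested it was -0.08, with 5783 above 0 and 7724 below.

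The promoters of the 2 members that rose are shown because these are the genes on which the comparison turns. Each sequence holds the 250 bases before the gene start, 5′ to 3′ on the strand of the gene, from RefSeq on GRCh38.p14. Capitals mark matches to a cAMP response element (TGACGTCA) or a GC box (GGGCGG, written CCGCCC where it lies on the other strand). SRSF6 lies at chr20:43457896-43464243 and its sequence at chr20:43457646-43457895 on the plus strand. CCNL1 lies at chr3:157143121-157160147 and its sequence at chr3:157160148-157160397 on the minus strand.
SRSF6: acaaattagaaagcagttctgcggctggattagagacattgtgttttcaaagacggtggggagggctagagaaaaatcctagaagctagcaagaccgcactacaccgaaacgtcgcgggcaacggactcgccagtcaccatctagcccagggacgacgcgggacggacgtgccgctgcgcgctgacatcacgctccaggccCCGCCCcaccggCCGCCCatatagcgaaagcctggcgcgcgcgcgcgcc
CCNL1: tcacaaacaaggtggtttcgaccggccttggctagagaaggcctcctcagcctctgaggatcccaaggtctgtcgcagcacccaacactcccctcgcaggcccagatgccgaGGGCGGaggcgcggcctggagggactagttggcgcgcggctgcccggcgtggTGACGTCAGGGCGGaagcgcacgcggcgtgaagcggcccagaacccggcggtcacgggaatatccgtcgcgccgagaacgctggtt

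Both sequences are rich in G and C, at 61.6% in SRSF6 and 67.6% in CCNL1. Each holds 2 GC boxes. In CCNL1 the cAMP response element abuts a GC box without sharing a base with it. Among the 38 members with a promoter in the table, CCNL1 is the 1 that holds TGACGTCA, which 1.77% of all 27305 promoters of the same 250 bases hold on either strand. The GC box is in 26 of the 38 (68.4%) and in 42.3% of all promoters, and the median G and C content is 65.6% in the members and 58.0% in all. The E-box CACGTG is in 8 members (21.1%), of which 6 are hnRNPs, 2 are CLK kinases and 0 are SR proteins, beside 6.49% of all promoters. CCAAT is in 17 members (44.7%), 13 of them hnRNPs, and in 33.0% of all promoters. The TATA box TATAAA is in 5 members (13.2%) and 11.1% of all, and CCGGAAG, an ETS site, is in 6 members (15.8%) and 8.82% of all. The AP-1 site TGANTCA is in 0 of the 38 and in 6.60% of all promoters. Such matches describe the letters in these windows and not the binding of a factor.

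Total counts ran from 65902331 to 88806394 in the air libraries and from 60482726 to 72099157 in the aerosol libraries. Aerosol libraries 4 and 5 stood apart on the first principal component of all tested genes, at 82.2 and 206.3. The other 8 libraries lay between -50.7 and 1.11. The share of counts from mitochondrially encoded genes was 7.75% to 10.3% in air and 12.4% to 19.5% in aerosol, highest in aerosol libraries 4 and 5 at 18.1% and 19.5%. MALAT1, a nuclear noncoding RNA of speckles, took 0.291% to 0.390% of counts in air and 0.784% to 3.81% in aerosol, again highest in libraries 4 and 5. Counting error alone gave these shares 95% Wilson intervals no wider than 0.0195 percentage points. The part of these differences in the results on splicing regulators was not tested. Fewer cells of a kind and less RNA per cell cannot be told apart in bulk libraries.

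Of the 12 SR proteins, 1 passed the test, SRSF6. In 10 of the 12 the log2 fold change was above 0, with a class median of 0.35, and no test was made of the class. The class took 0.148% to 0.165% of all counts in the air libraries and 0.173% to 0.202% in the aerosol libraries, and the groups did not overlap. Without aerosol libraries 4 and 5 the class median was 0.19.

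SRSF6, also called SRp55, regulates alternative exons and is known in humans for exons of the tau gene and for cancer. Its level was 281, 264, 264, 267 and 273 CPM in air libraries 1 to 5 and 373, 394, 390, 422 and 394 CPM in aerosol libraries 1 to 5. Each aerosol library was above each air library, and the spread within each group was small beside the gap. The mean was 270 ± 7.45 CPM in air and 395 ± 17.8 CPM in aerosol (SD, n = 5 each). The log2 fold change was 0.55 ± 0.07 (standard error), with a 95% interval of 0.39 to 0.70 and an edgeR adjusted p of 0.00365. It was 0.51 without aerosol libraries 4 and 5, with an adjusted p of 0.00798. RefSeq places no other gene over SRSF6.

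SRSF5, or SRp40, had the highest log2 fold change of the class and did not pass the test. Its level was 156, 170, 160, 162 and 189 CPM in air. In aerosol it was 188, 175, 283, 369 and 370 CPM. Aerosol libraries 1 and 2 fell within the air range and the other 3 lay well above it, so the groups overlapped. The log2 fold change was 0.73 ± 0.20, with an adjusted p of 0.0704, and 0.36 without aerosol libraries 4 and 5. SRSF11, also called p54, was likewise highest in aerosol libraries 4 and 5, at 120 to 158 CPM in air and 144, 141, 172, 248 and 288 CPM in aerosol. Its log2 fold change was 0.59 ± 0.19, with an adjusted p of 0.115, and 0.20 without aerosol libraries 4 and 5.

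SRSF8, SRSF7, SRSF4 and SRSF10 had log2 fold changes of 0.47, 0.41, 0.41 and 0.30, with adjusted p of 0.237, 0.209, 0.421 and 0.189. SRSF8, an expressed copy of SRSF2 without introns, was at 5.41 to 6.20 CPM in air and 7.01 to 10.6 CPM in aerosol, so its groups did not overlap. Reads that match both SRSF8 and SRSF2 make its level uncertain, since how such reads were counted is not stated. SRSF10 is known as a splicing repressor when it is dephosphorylated, as after heat shock. It was at 130 to 169 CPM in air and 154 to 218 CPM in aerosol, and the groups overlapped.

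SRSF3, SRSF2 and SRSF1 had intervals that included 0, as did SRSF4, at -0.12 to 0.94. SRSF1, the founding member of the family and a splicing factor with oncogenic activity, was at 207, 215, 193, 217 and 197 CPM in air and 205, 218, 242, 178 and 208 CPM in aerosol. Its groups overlapped throughout, and the log2 fold change was 0.03, with a 95% interval of -0.17 to 0.23. SRSF3, which also serves mRNA export, was at 181 to 222 CPM in air and at 222, 196, 211, 368 and 194 CPM in aerosol. Its log2 fold change of 0.24 rested on library 4, and without that library it was 0.02. SRSF2, a marker protein of nuclear speckles, had a log2 fold change of 0.18, with an interval of -0.09 to 0.44.

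SRSF9 went the other way. This small SR protein, SRp30c, was at 141, 166, 189, 120 and 176 CPM in air and 130, 136, 129, 106 and 81.1 CPM in aerosol. Most aerosol libraries lay low in the air range or below it, but the groups overlapped. Its log2 fold change was -0.44 ± 0.16, with a 95% interval of -0.79 to -0.10 and an adjusted p of 0.152, and was -0.27 without aerosol libraries 4 and 5. SRSF12 was at or below 1.22 CPM in all 10 libraries, and its interval of -5.00 to 2.81 shows no more than that the counts were too few.

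**Figure D1:**
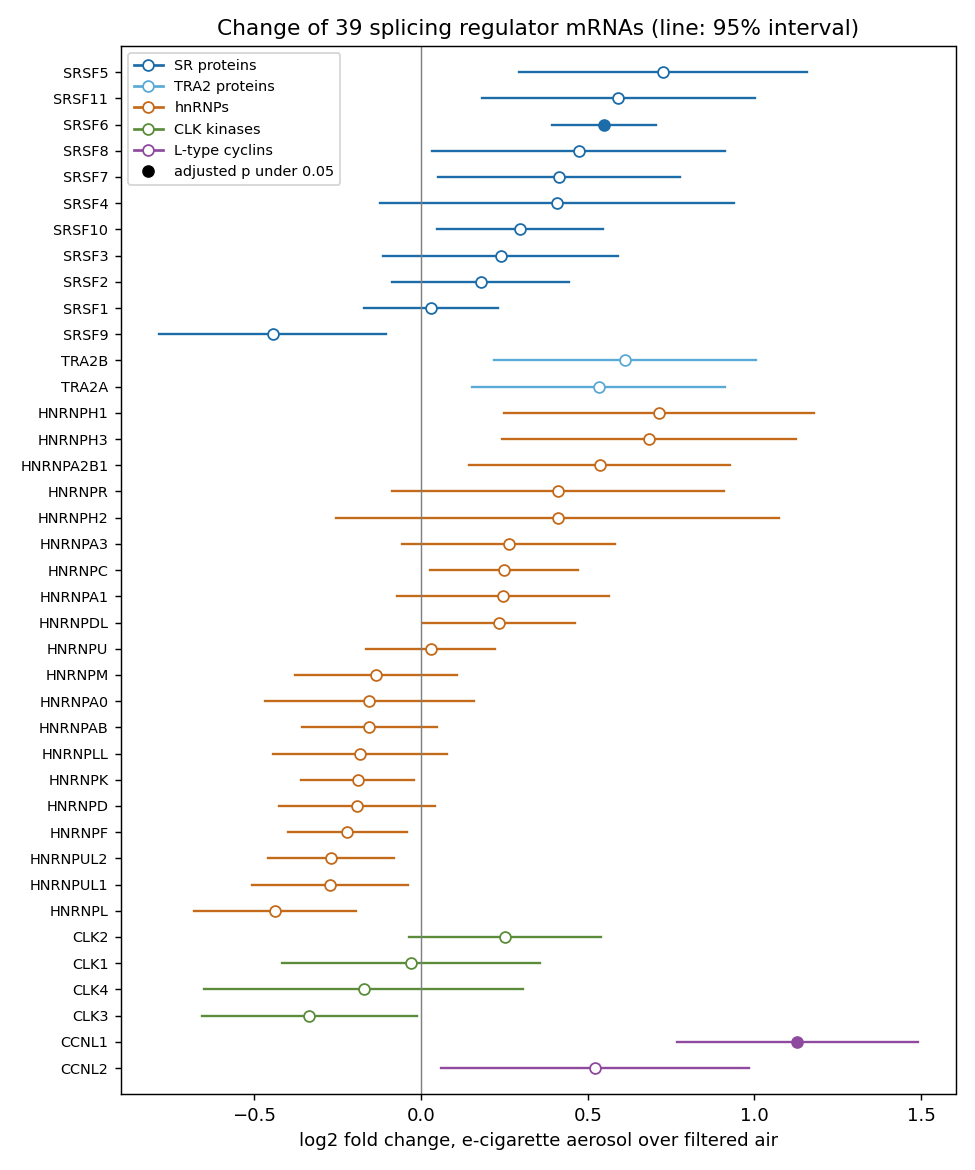
Log2 fold change of aerosol over air (x axis) for 39 members by class (y axis), with lines for the 95% interval, which is not adjusted for the number of genes. Filled points are SRSF6 and CCNL1, the 2 with an edgeR adjusted p under 0.05. The interval leaves out 0 in 22 of the 39, 15 above and 7 below. This equals an edgeR unadjusted p under 0.05, found for 18.3% of all genes tested, and for 9.48% in the lower direction. HNRNPA1L2 and SRSF12 lie outside the plotted range and are not shown.

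TRA2A and TRA2B, the human forms of the fly factor transformer-2, bind exonic enhancers together with SR proteins. TRA2B was at 200, 318, 223, 316 and 233 CPM in air and 318, 313, 339, 458 and 546 CPM in aerosol. The lowest aerosol libraries matched the highest air libraries, so the groups overlapped. TRA2B had a log2 fold change of 0.61 ± 0.18, with an adjusted p of 0.0920. TRA2A was at 86.9, 94.0, 92.3, 95.7 and 99.1 CPM in air and 112, 113, 105, 132 and 216 CPM in aerosol. Its groups did not overlap, with library 5 far above the rest. Here the difference on the log2 scale was 0.53 ± 0.18, with an adjusted p of 0.124. Neither passed the edgeR test, both had an unadjusted p under 0.05, and DESeq2 called TRA2B higher. The values were 0.32 for TRA2B and 0.23 for TRA2A without aerosol libraries 4 and 5.

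Of the 2 L-type cyclins, 1 passed the test, CCNL1. Cyclin L1 and cyclin L2 have a domain rich in arginine and serine, like SR proteins, and bind CDK11 in speckles. CCNL1 was at 48.2, 49.4, 49.5, 40.2 and 47.6 CPM in air and 76.2, 89.2, 92.9, 104 and 152 CPM in aerosol. Every aerosol library was above every air library. The mean was 47.0 ± 3.89 CPM in air and 103 ± 29.1 CPM in aerosol. This gave a log2 fold change of 1.13 ± 0.17, with a 95% interval of 0.77 to 1.49 and an edgeR adjusted p of 0.00643. It was 0.87 without aerosol libraries 4 and 5, with an adjusted p of 0.00619.

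CCNL2 was at 63.4, 60.8, 25.6, 57.6 and 64.3 CPM in air and 71.5, 93.3, 83.7, 65.5 and 76.0 CPM in aerosol. The groups did not overlap, although aerosol library 4 was close to the highest air library and air library 3 was far below the rest of its group. Its log2 fold change was 0.52 ± 0.21, with an adjusted p of 0.217, and was 0.34 without air library 3 and 0.60 without aerosol libraries 4 and 5. RefSeq places no other gene over CCNL1, CCNL2, TRA2A or TRA2B.

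The CDK11 kinases themselves did not pass the test. CDK11A had a log2 fold change of 0.50 with an adjusted p of 0.230 and CDK11B of 0.23 with an adjusted p of 0.605, and reads that match both of these near-identical neighbours make their values uncertain. Over the 10 genes of the list of cyclin L partners and transcription kinases, 0 passed the edgeR test, 5 had an unadjusted p under 0.05 (18.3% of all genes did), 8 were above 0 and the median log2 fold change was 0.07. CCNK, the cyclin of CDK12 and CDK13, had the highest mean CPM of the list, a scale not corrected for transcript length, and was at 158 ± 13.1 CPM in air and 168 ± 31.9 CPM in aerosol.

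**Figure D2:**
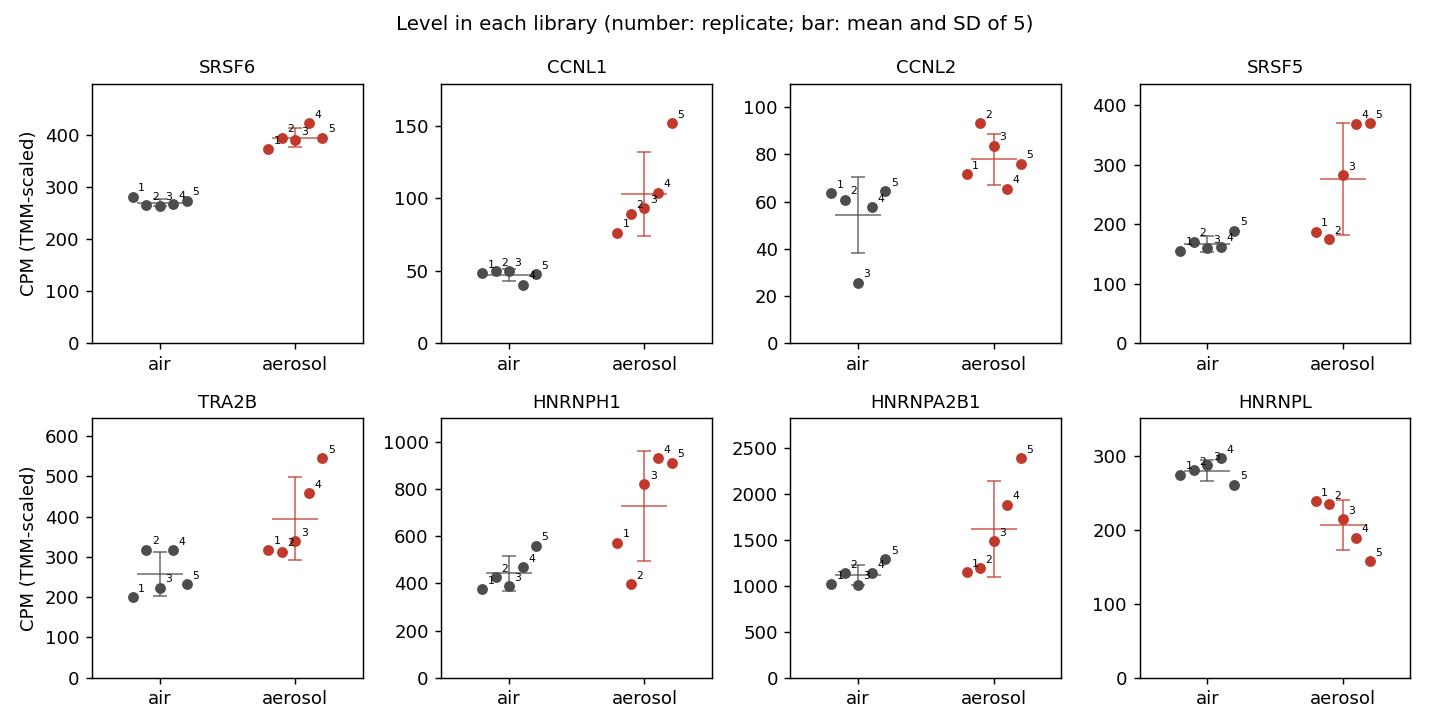
CPM (y axis, from 0) of SRSF6, CCNL1, CCNL2, SRSF5, TRA2B, HNRNPH1, HNRNPA2B1 and HNRNPL in each air and aerosol library (x axis), with the replicate number beside each point and bars for the mean and SD of 5. SRSF6, CCNL1 and CCNL2, higher in aerosol, and HNRNPL, lower in aerosol, separate the groups. In SRSF5, HNRNPH1 and HNRNPA2B1 aerosol libraries 1 and 2 lie at or near the air values and libraries 4 and 5 lie far above.

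CLK1 to CLK4 are kinases with dual specificity that phosphorylate SR proteins in the nucleus and release them from speckles, and intron retention in their own transcripts is known to respond to stress. None of the 4 passed the edgeR test, DESeq2 and limma-voom called none of them, and 1, CLK3, had an unadjusted p under 0.05. CLK1 was at 34.6, 34.8, 28.8, 38.1 and 47.1 CPM in air and 34.4, 25.1, 33.9, 38.8 and 47.4 CPM in aerosol. The groups covered nearly the same range, with a log2 fold change of -0.03 and a 95% interval of -0.42 to 0.36.

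CLK2 was at 23.0, 27.4, 29.9, 27.5 and 27.9 CPM in air and 34.9, 36.0, 32.5, 26 and 32.2 CPM in aerosol. Aerosol library 4 lay inside the air range and the other 4 lay above it. The log2 fold change was 0.25, with an interval of -0.04 to 0.54 and an adjusted p of 0.347. CLK3 was at 51.9, 57.1, 58.8, 54.0 and 55.2 CPM in air and 61.4, 44.1, 33.7, 40.1 and 40.5 CPM in aerosol. Aerosol library 1 was the highest of all 10 and the other 4 were below every air library. Its log2 fold change was -0.33 ± 0.15, with an adjusted p of 0.257, and was -0.49 with an adjusted p of 0.04999 without aerosol library 1. That was the 1 fit that passed for CLK3 when single libraries were left out. The highest adjusted p of CLK3 in such fits was 0.423, without air library 3. CLK4 was at 15.7, 13.5, 14.9, 15.2 and 18.0 CPM in air and 12.5, 9.25, 17.9, 9.92 and 19.0 CPM in aerosol. The aerosol libraries lay on both sides of the air range, and the log2 fold change was -0.17 with an interval of -0.65 to 0.31. Without aerosol libraries 4 and 5 the values for CLK1, CLK2, CLK3 and CLK4 were -0.24, 0.34, -0.26 and -0.23, with adjusted p between 0.213 and 0.676.

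The other kinases and the phosphatase of the SR proteins were tested as a list of 13 genes, of which 12 had enough counts. None passed the edgeR test, 3 had an unadjusted p under 0.05, again beside 18.3% of all genes, 5 were above 0, and the median log2 fold change was -0.10. SRPK1, the main cytoplasmic SR kinase, was at 174 ± 19.6 CPM in air and 175 ± 10.6 CPM in aerosol, and SRPK2 had a log2 fold change of -0.11. PPP1CB, a catalytic subunit of protein phosphatase 1 named on the same basis as CCNK, was at 372 ± 35.9 CPM in air and 447 ± 107 CPM in aerosol.

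**Figure D3:**
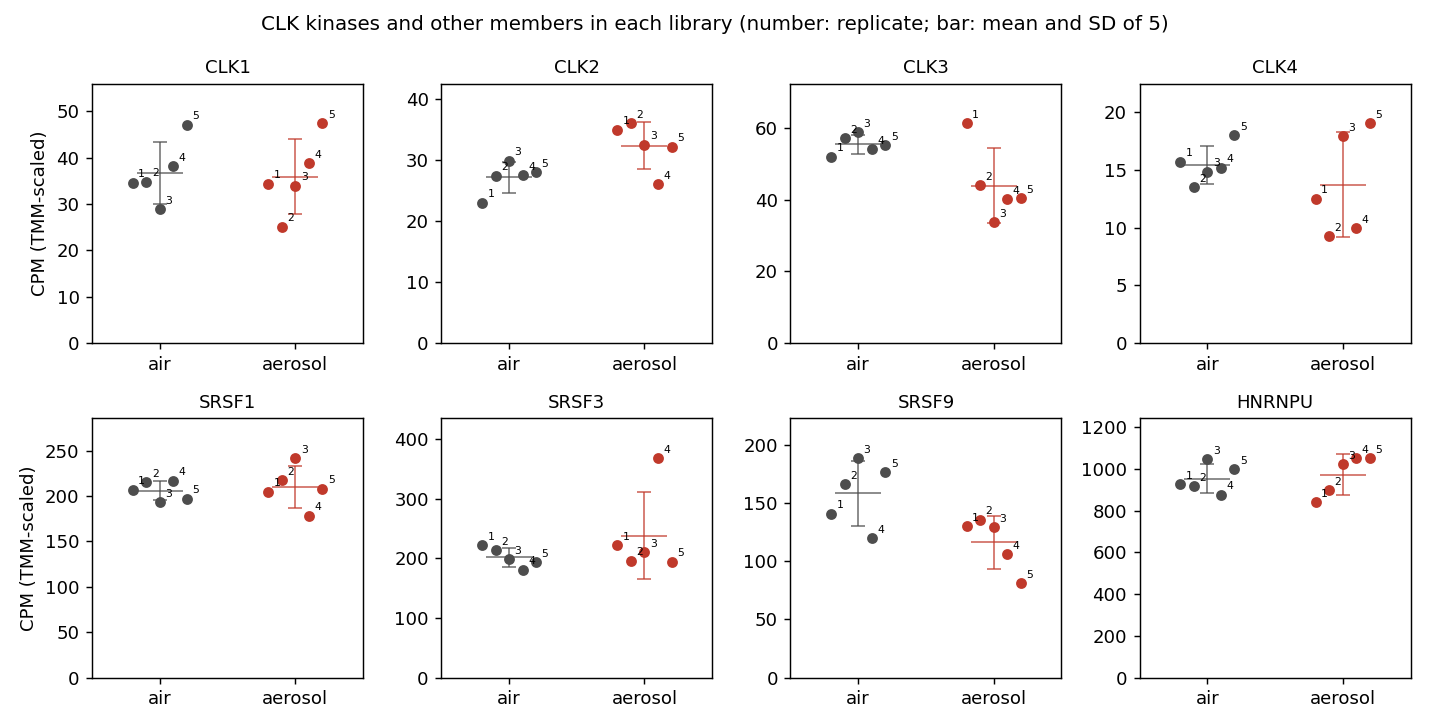
CPM (y axis, from 0) of CLK1, CLK2, CLK3, CLK4, SRSF1, SRSF3, SRSF9 and HNRNPU in each air and aerosol library (x axis), with the replicate number beside each point and bars for the mean and SD of 5. The groups overlap in all 8 genes, and the aerosol mean of SRSF3 rests on library 4 at 368 CPM.

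The hnRNPs split into members above and below the air level, and 0 of the 21 tested passed the edgeR test, with 11 at an unadjusted p under 0.05, beside the 18.3% of all genes. Above 0 were 11 and below 0 were 10, with a median log2 fold change of 0.03. DESeq2 called HNRNPH1, HNRNPH3 and HNRNPA1L2 higher and HNRNPL lower. As a share of all counts the hnRNPs took 0.834% to 0.921% in air and 0.819% to 1.01% in aerosol, and the groups overlapped.

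The H/F subfamily binds runs of G. HNRNPH1 was at 375, 425, 389, 470 and 560 CPM in air and 574, 397, 822, 933 and 912 CPM in aerosol. Aerosol library 2 was inside the air range, library 1 just above it and the other 3 far above. HNRNPH1 had a log2 fold change of 0.71 ± 0.21, with an adjusted p of 0.0984. HNRNPH3 was at 228 to 293 CPM in air and 272, 288, 411, 488 and 632 CPM in aerosol, with a log2 fold change of 0.68 ± 0.20 and an adjusted p of 0.0933. HNRNPF, of the same subfamily, lay on the other side at 288 to 349 CPM in air and 272 to 303 CPM in aerosol, with a log2 fold change of -0.22 and an adjusted p of 0.172. Without aerosol libraries 4 and 5 the values were 0.42 for HNRNPH1, 0.31 for HNRNPH3 and -0.25 for HNRNPF. HNRNPH2 was low, at 1.75 to 3.18 CPM over all libraries, with an interval of -0.25 to 1.07.

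The A/B subfamily packages nascent transcripts and opposes SR proteins at many exons. HNRNPA2B1, the hnRNP with the highest mean CPM without correction for length, was at 1016, 1136, 1012, 1135 and 1288 CPM in air and 1147, 1194, 1483, 1882 and 2392 CPM in aerosol. Aerosol libraries 1 and 2 were inside the air range and the other 3 above it. The log2 fold change was 0.54 ± 0.18, with an adjusted p of 0.135. HNRNPA1, which competes with SRSF1 at splice sites, was at 817 to 878 CPM in air and 729, 794, 976, 1161 and 1362 CPM in aerosol. Its aerosol libraries 1 and 2 were below the air range and the other 3 above it, with a log2 fold change of 0.25 and an adjusted p of 0.419. HNRNPA3 had a log2 fold change of 0.26, HNRNPA0 of -0.15 and HNRNPAB of -0.16, each with an interval that included 0. HNRNPA2B1 was at 0.18, HNRNPA1 at -0.03 and HNRNPA3 at -0.02 without aerosol libraries 4 and 5.

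HNRNPA1L2, a copy of HNRNPA1 that lies on chromosome 13, had the highest value of all members, a log2 fold change of 3.52 ± 0.96. It was at 0.324, 0.104, 0.490, 0.712 and 0.794 CPM in air and 0.0470, 2.91, 6.55, 6.46 and 11.9 CPM in aerosol. Aerosol library 1 was below every air library and the other 4 above every one. Its adjusted p was 0.0746 with all libraries and 0.00937 without aerosol library 1. That was the 1 fit that passed when single libraries were left out, and the highest adjusted p was 0.179, without air library 3. Reads that match HNRNPA1 as well make this level uncertain.

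HNRNPU, a chromatin-associated scaffold protein, was at 925, 917, 1047, 876 and 998 CPM in air and 841, 897, 1020, 1049 and 1052 CPM in aerosol. The groups overlapped, with a log2 fold change of 0.03 and a 95% interval of -0.16 to 0.22. Its relatives HNRNPUL1 and HNRNPUL2 were lower, with log2 fold changes of -0.27 each and adjusted p of 0.198 and 0.121. HNRNPUL2 was at 290 to 322 CPM in air and 222 to 283 CPM in aerosol, without overlap.

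HNRNPL, which binds CA repeats, came closest to the threshold from below. It was at 275, 281, 288, 298 and 261 CPM in air and 239, 235, 215, 190 and 158 CPM in aerosol. Every aerosol library was under every air library, with a log2 fold change of -0.44 ± 0.11, a 95% interval of -0.68 to -0.19 and an edgeR adjusted p of 0.0553. It was -0.30 without aerosol libraries 4 and 5. Its paralogue HNRNPLL had a log2 fold change of -0.18, with an interval of -0.44 to 0.08. HNRNPK, which binds stretches of C in RNA and DNA, was at 488 to 520 CPM in air and 396 to 486 CPM in aerosol without overlap, with a log2 fold change of -0.19 ± 0.08 and an adjusted p of 0.220.

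The remaining hnRNPs did not pass the test either. HNRNPR, at 529 to 678 CPM in air and 535, 510, 650, 973 and 1263 CPM in aerosol, had a log2 fold change of 0.41 that was -0.07 without aerosol libraries 4 and 5. HNRNPC, which binds runs of U and sorts transcripts by length, and HNRNPDL had log2 fold changes of 0.25 and 0.23, with adjusted p of 0.220 and 0.260. HNRNPM was at -0.13. HNRNPD, known as AUF1 for its role in decay of mRNAs with AU-rich elements, was at -0.19 with all libraries. Without aerosol libraries 4 and 5 it was -0.36, with an adjusted p of 0.0523.

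RefSeq places other genes over some members. Overlap was taken over whole gene spans, introns included. Since the use of strand in counting is not given, reads from stretches that a pair shares may not be told apart. Protein-coding genes overlap SRSF2 (MFSD11), SRSF4 (MECR), SRSF9 (GATC), SRSF12 (PM20D2), HNRNPH2 (RPL36A-HNRNPH2), HNRNPH3 (PBLD and RUFY2), HNRNPAB (PHYKPL), HNRNPK (RMI1), HNRNPU (LOC124904588) and CLK3 (CLK3-AS1). Noncoding genes or pseudogenes overlap SRSF1, SRSF2, SRSF5, HNRNPH1, HNRNPA3, HNRNPK, HNRNPL, HNRNPU, HNRNPUL1, HNRNPUL2 and CLK4.

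Groups without overlap were counted over the members as a whole. Aerosol lay wholly above air in 5 of the 41 members, SRSF6, SRSF8, TRA2A, CCNL1 and CCNL2, beside 3.52% of all genes tested. It lay wholly below in 3 members, HNRNPK, HNRNPL and HNRNPUL2, beside 3.93% of all genes. Of the 13507 protein-coding genes tested, aerosol lay wholly above air in 341 and wholly below in 708.

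The members differed between aerosol libraries. Above the highest air library were 9 of the 41 members in aerosol library 1, 9 in library 2, 22 in library 3, 23 in library 4 and 27 in library 5. In libraries 4 and 5 together 21 members exceeded the air range, and in libraries 1 and 2 together 6 did. Below the lowest air library were 11, 13, 9, 10 and 7 members in aerosol libraries 1 to 5. The same counts over all genes were not made, and libraries 4 and 5 also stood apart over all tested genes. Whether these counts are particular to the members was not tested. The median over hnRNPs, relative to the mean of the air libraries on the log2 scale, was -0.16 and -0.10 in aerosol libraries 1 and 2 and 0.10, 0.14 and 0.15 in the other 3. For the SR proteins it was above 0 in each, at 0.15, 0.09, 0.43, 0.52 and 0.29. For the 2 L-type cyclins it lay between 0.59 and 1.13. In air library 3 their value was -0.465, which lowers the air mean, and in the other air libraries it was at most 0.17.

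**Figure D4:**
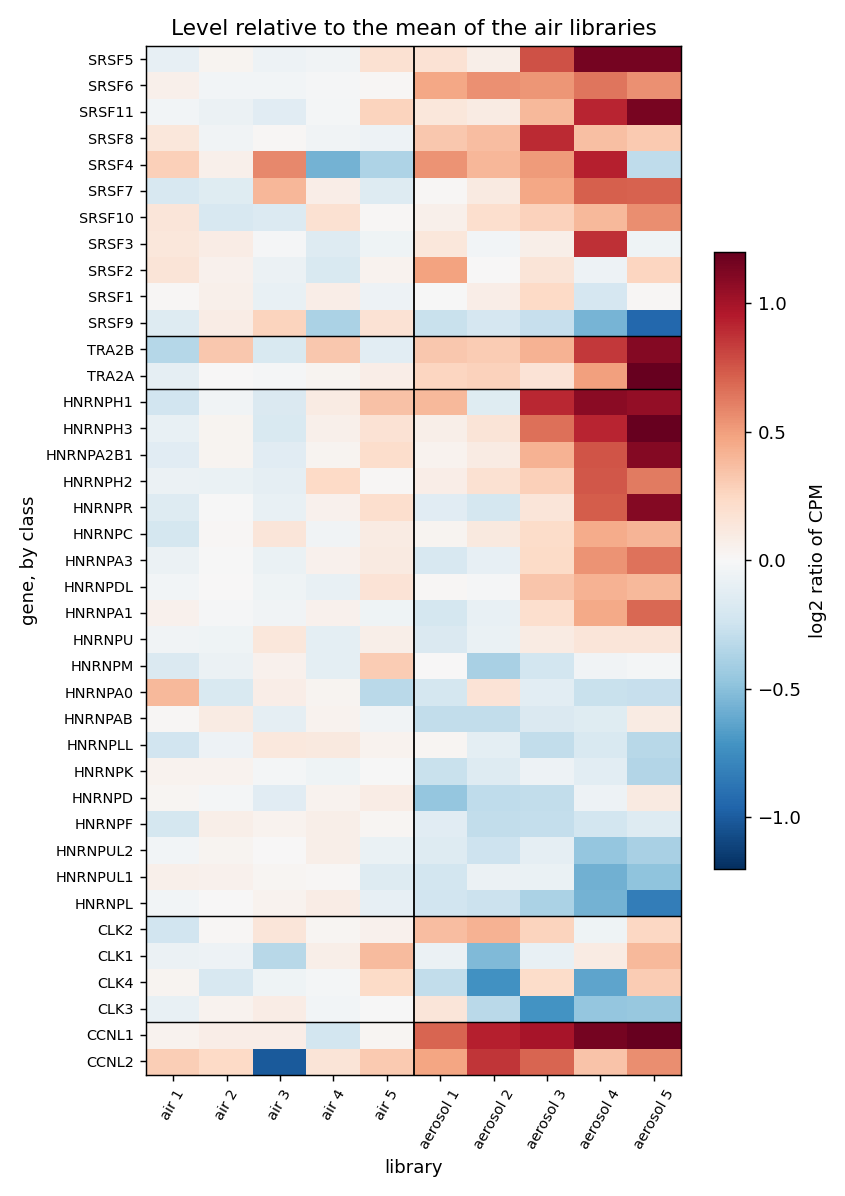
Log2 ratio of CPM to the mean of the 5 air libraries (colour, limited to 1.2 in either direction) for 39 members (y axis, by class) in 10 libraries (x axis). SRSF6 and CCNL1 are above air in each aerosol library, while most hnRNPs above air are so mainly in aerosol libraries 3, 4 and 5.

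Leaving out aerosol libraries 4 and 5 moved 26 of the 39 plotted members closer to 0, a count not made over all genes. Of the 25 above 0 with all libraries, 19 were lower without them and 6 were higher. Among the 20 plotted hnRNPs, 10 were above 0 with all libraries and 6 without libraries 4 and 5, and the class median over all 21 went from 0.03 to -0.07. Of the 11 plotted SR proteins, 10 were above 0 without these libraries. The calls of SRSF6 and CCNL1 held.

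**Figure D5:**
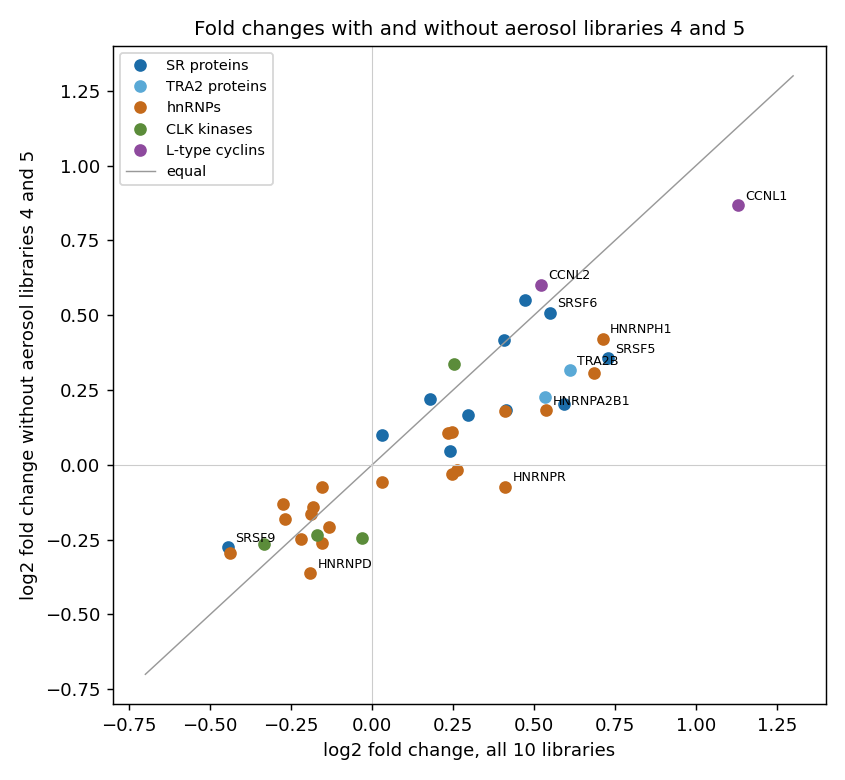
Log2 fold change with all 10 libraries (x axis) against the same without aerosol libraries 4 and 5 (y axis) for 39 members, coloured by class, with the line of equal values. Points under the line in the right part, such as HNRNPR at 0.41 and -0.07, are lower without these libraries, while SRSF6 and CCNL1 are at 0.51 and 0.87 without them.

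The rest of the splicing machinery was described through 9 lists of 198 further genes, of which 193 were tested. Of these 4 rose and 2 fell, 3.11% beside the 3.01% of all genes, with a median log2 fold change of -0.01. The list of import factors and speckle proteins held 3 of the genes that rose among its 32, beside 1.62% of all genes. In this list 16 had an unadjusted p under 0.05, beside 18.3% of all genes, 22 were above 0 and the median was 0.25. SREK1, which has an arginine and serine domain like an SR protein, was at 106, 101, 101, 105 and 137 CPM in air and 169, 187, 217, 229 and 226 CPM in aerosol. Its groups were apart, and the log2 fold change was 0.90 ± 0.12, with an edgeR adjusted p of 0.00392. RSRC2 rose by 0.89 ± 0.21 and RBM25, which associates with the U1 snRNP, by 0.70 ± 0.17, with adjusted p of 0.0421 and 0.0463. Without aerosol libraries 4 and 5 these were 0.46 and 0.41 and no longer passed, with adjusted p of 0.0690 and 0.129.

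Core components showed few changes. PRPF31, a protein of the U4/U6.U5 tri-snRNP, was at 93.8 ± 6.18 CPM in air and 64.0 ± 10.3 CPM in aerosol and fell by 0.55 ± 0.12 on the log2 scale, with an adjusted p of 0.0317. Without aerosol libraries 4 and 5 it was -0.41 and no longer passed, with an adjusted p of 0.0532. PRPF31 was the 1 gene called of 23 in its list, beside 1.39% of all genes called lower. In that list 8 had an unadjusted p under 0.05, beside 18.3% of all genes, 19 were below 0 and the median was -0.18. Protein-coding genes as a whole also lay below 0, with a median of -0.08 and 7724 of 13507 below. In the lists of U1 and U2 snRNP proteins, 0 of 13 and 0 of 20 passed the edgeR test, with 2 and 8 at an unadjusted p under 0.05, which 18.3% of all genes had, and medians of -0.05 and -0.14. SNRPD1 and SF3B1, with the highest mean CPM in each, had log2 fold changes of 0.34 and 0.11. Of 18 genes of the PRP19 complex, helicases and release, 0 passed, with 4 at an unadjusted p under 0.05 and a median of -0.01.

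Among 46 tested splicing regulators outside the SR and hnRNP families, 14 had an unadjusted p under 0.05, beside 18.3% of all genes. In this list 1 gene rose, beside 1.62% of all genes. It was PTBP2, the neuronal form of the polypyrimidine tract binding protein. PTBP2 was at 37.0 ± 6.75 CPM in air and 59.6 ± 5.03 CPM in aerosol, with a log2 fold change of 0.69 ± 0.14 and an adjusted p of 0.0262. Among 19 genes of the exon junction and mRNA export, 4 had an unadjusted p under 0.05 and 1 fell, beside 18.3% and 1.39% of all genes. That gene, ALYREF, an export adaptor, was at 145 ± 9.34 CPM in air and 108 ± 9.31 CPM in aerosol. ALYREF fell by 0.43 ± 0.09 on the log2 scale, with an adjusted p of 0.0289. When each of the 10 libraries was left out in turn, SREK1 passed in 10 fits, PTBP2 in 7 and ALYREF in 5. PRPF31 and RBM25 passed in 3 each and RSRC2 in 2. The highest adjusted p among these fits was 0.129, for RBM25 without air library 3. Calls over all genes ran from 110 to 383 higher and from 73 to 374 lower in these fits, beside 327 and 281 as reported.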

How the data were processed

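The 10 mRNA libraries of AC16 cells were analysed, and the miRNA libraries were not used here. The deposited tables hold 1 whole-number read count per gene and library, made by the authors. The tools were HISAT, DESeq 1.8.3 and featureCounts 1.5.0-p3, on hg38, per the submitters' processing notes. Settings, the use of strand and the handling of reads with several matches are not given there. No pair of libraries in a group agreed within sampling noise (the chi-square over genes was at least 64.9 times its degrees of freedom). A table of Ensembl identifiers gave the symbols (58207 of 58735 matched). RefSeq GRCh38.p14 gave positions and overlaps, matched by symbol for all 45 members.

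The test was edgeR 4.0.16 in R 4.3.3, with TMM scaling, the filterByExpr filter (20166 genes kept, 38569 left out), a robust quasi-likelihood F test with group as the only term, and Benjamini-Hochberg adjustment over all genes kept, with calls under 0.05. The code was checked on simulated data. The common biological coefficient of variation was 0.602. The F statistic of each fold change gave its standard error and 95% interval. CPM values are counts relative to library size after TMM scaling. Since transcript length was not used, CPM is compared within genes. DESeq2 1.42.0, limma-voom (limma 3.58.1), other scalings, filters and thresholds, a replicate block and the removal of libraries were run as alternatives.

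The members and lists were chosen with earlier results of these data known. By rule, values were given for called members, the 2 hnRNPs and SR proteins with the highest mean CPM, the CLK, CCNL and TRA2 genes and, per further list, up to 3 called genes or else the one with the highest mean CPM. Other members were described after their values were seen. Of the genes this rule gave, 1 is not reported here.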

Additional observations from a re-analysis of the deposited data

Results flagged for a closer look

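In 9 of 82 groups of 5 libraries, 1 library lay far from the other 4 of its group (Dixon's test at the 95% level, which chance passes in about 1 of 20 groups). In air, CCNL1 was low in library 4 at 40.2 CPM, with the others at 47.6 to 49.5. CCNL2 was low in air library 3 at 25.6 CPM, with the others at 57.6 to 64.3, so the size of its difference from aerosol rests in part on that library. HNRNPF was low in air library 1 at 288.0 CPM (others 339.4 to 349.3), HNRNPUL1 low in air library 5 at 470.0 CPM (others 527.6 to 542.9), and SRSF11 high in air library 5 at 158.0 CPM (others 119.7 to 128.7). In aerosol, SRSF3 was high in library 4 at 368.0 CPM, with the others at 194.2 to 221.6. TRA2A was high in aerosol library 5 at 216.0 CPM, with the others at 104.9 to 131.6. SRSF8 was high in aerosol library 3 at 10.6 CPM (others 7.01 to 7.29), and SRSF12 high there at 0.665 CPM (others 0 to 0.188).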

How the results depend on the processing

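SRSF6 and CCNL1 passed the test under each alternative run, including each single library left out, where their highest adjusted p was 0.0195 (without air library 3) and 0.0255 (without air library 4). The number of members called higher, 2 as reported, was 8 with DESeq2 (which added SRSF5, SRSF8, TRA2B, HNRNPH1, HNRNPH3 and HNRNPA1L2), 7 at an adjusted p under 0.1, and 2 to 5 when single libraries were left out. The highest, 5, came without aerosol library 1 and without aerosol library 2, where 337 and 383 of all genes were called higher. The number called lower, 0 as reported, was 1 with DESeq2, with limma-voom, with limma-voom and quality weights, without a filter on low counts and at an adjusted p under 0.1, each time HNRNPL, and 0 to 2 without single libraries. DESeq2 called 1148 genes higher and 809 lower of the 34024 with any count.

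Of the further splicing genes, 4 were called higher as reported, 7 with upper-quartile scaling, 12 with DESeq2, 7 with at least 1 CPM in 5 libraries, 7 among protein-coding genes alone, 2 without aerosol libraries 4 and 5, 1 at an adjusted p under 0.01, 10 at one under 0.1, and 1 to 7 without single libraries. Called lower were 2 as reported, 1 with upper-quartile scaling, 5 with library size alone, 11 with DESeq2, 7 with quality weights, 1 among protein-coding genes, 0 under 0.01, 10 under 0.1, and 0 to 4 without single libraries. The lowest of these counts came without air libraries 1, 2, 3 or 4 or aerosol library 3. Calls over all genes moved too, from 327 higher and 281 lower as reported to 482 and 171 with upper-quartile scaling. Without air libraries 1, 2, 3 or 4 they were 126 and 105, 110 and 77, 110 and 73, and 126 and 101. Without aerosol library 3 they were 150 and 112. SREK1 kept its call under each alternative run.

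The median log2 fold change without aerosol libraries 4 and 5 was 0.19 for the SR proteins and 0.27 for the TRA2 proteins, from 0.35 and 0.57. Some members changed sign, none of them called. As reported, CLK1, HNRNPU and SRSF1 were near 0, at -0.03, 0.03 and 0.03. HNRNPR, HNRNPA1 and HNRNPA3 were further off, at 0.41, 0.25 and 0.26, and SRSF12 was at -1.09. CLK1 was at 0.058 with upper-quartile scaling, 0.018 with the CPM filter, 0.032 among protein-coding genes and -0.156 to 0.072 without single libraries. HNRNPU was at -0.078 with library size alone, -0.00738 with quality weights, -0.058 without aerosol libraries 4 and 5, and -0.0068 to 0.074 without single libraries. SRSF1 was at -0.061 with library size alone and -0.032 to 0.078 without single libraries, and SRSF12 at -2.92 to 0.13. HNRNPR, HNRNPA1 and HNRNPA3 were at -0.073, -0.031 and -0.016 without aerosol libraries 4 and 5. The cause was not tested.

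Libraries with the same number did not deviate together (correlations of 0.00781 to 0.0529), so the numbers were not taken as pairs. With the replicate block 2 members were called higher and 0 lower, and 1 further splicing gene lower.

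Counts of SRSF12 and HNRNPA1L2 were low, which limits the precision of their values. A table of 1 count per gene cannot show which isoform is made, and phosphorylation and protein were not measured.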

Other observations

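Pseudogenes and hyphenated names of the same families, including 1 CLK pseudogene, left out of the members, had counts of their own. Of 131 such genes 36 were tested. Of these, 3 rose and 0 fell in the edgeR test, beside 1.62% and 1.39% of all genes tested. Their median log2 fold change was 0.61, with a range of -1.98 to 2.49, beside a median of -0.00 over all genes tested. Those that rose were HNRNPA1P15 (2.41, adjusted p 0.0347), HNRNPA1P68 (1.91, adjusted p 0.0285) and HNRNPA3P11 (1.67, adjusted p 0.0225). Together these genes took 0.00794% to 0.0105% of counts in air and 0.00887% to 0.0134% in aerosol. How reads that also match the parent genes were counted is not given in the labels.

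Markers of other cell types were read from the same libraries. Fibroblast markers summed to 2532 to 3166 CPM in air and 2234 to 2983 CPM in aerosol, with 0 of 10 absent. Epithelial markers summed to 176 to 266 CPM in air and 128.8 to 149.2 CPM in aerosol, mostly KRT8 and KRT18, and KRT18 fell. Each of 6 endothelial markers averaged below 1 CPM, as did 5 of 6 leukocyte markers, with CD68 the exception.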
